A study of Caenorhabditis elegans with 6 samples.

Results

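The genes examined here build the inner, food-facing surface of the Caenorhabditis elegans intestine, together with ges-1, the gut esterase gene that is a classical marker of this tissue. They were chosen by name for their known roles: act-5, erm-1 and eps-8 of the microvilli, ifb-2, ifc-2, ifp-1 and ifo-1 of the intermediate filament layer beneath them, and ges-1. All 8 were present among the 19512 genes of the table, and all 8 were among the 11474 genes with enough counts to be tested.

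The lumen of the worm intestine is lined by a brush border, a dense carpet of microvilli on the apical side of each cell. An actin core fills each microvillus, linker proteins tie that core to the membrane, and the cores are rooted in a terminal web. Below it lies the endotube, a tough sheath of intermediate filaments that is anchored at the apical junctions and holds the lumen in shape. elt-2 encodes the main GATA transcription factor of the differentiated intestine, and the protein was first isolated through a GATA sequence in the ges-1 promoter.

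The study asked for the targets of elt-2 at L4, the last larval stage, and took RNA from whole worms of the wild-type strain N2. Large synchronized populations were put at L1 on bacteria holding an empty vector (control, 3 libraries) or expressing elt-2 double-stranded RNA (elt-2 RNAi, 3 libraries), and were harvested 28 hours later. The methods describe the replicates as biological and the RNAi plates as containing IPTG and ampicillin, and nothing marks a litter, day or batch shared by libraries of the same letter, A, B or C. The labels name no transgene or mutation, and because whole worms were used the intestine contributed only part of the RNA that was sequenced.

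Values are listed in the order of the letters A, B and C, and the 3 libraries labelled elt-2 RNAi are called RNAi-labelled. The libraries held 16568515 to 35047530 counts, and each RNAi-labelled library was deeper than each labelled control. Levels are given as CPM (counts scaled to a library of 1000000) after TMM scaling, whose factors ran between 0.492 in elt-2 RNAi C and 3.45 in control A. The median count of a gene was 57 in control A, the shallowest library, and 11 in elt-2 RNAi C, the deepest. The cause of this spread was not tested. Differences are log2 fold changes of elt-2 RNAi against control from edgeR's quasi-likelihood test, with p-values adjusted over all 11474 tested genes, and a gene was called at an adjusted p under 0.10. The knocked-down gene went against the labels: elt-2 had 4.08, 1.53 and 3.31 CPM in the labelled controls and 33.4, 5.81 and 178 CPM in the RNAi-labelled libraries (log2 fold change 4.60, SE 1.16, edgeR adjusted p = 0.0395). With library size alone elt-2 had 14.1, 2.09 and 3.23 CPM in the labelled controls and 23.3, 3.69 and 87.6 CPM in the RNAi-labelled libraries. The groups then overlapped, elt-2 RNAi B being below control A but above control B and C. Every direction below is therefore one between libraries as labelled and is not read as an effect of lower elt-2. In whole-worm RNA, fewer intestinal cells and less RNA in each cell cannot be told apart.

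Only act-5 among the 8 genes was called, and it was higher in the RNAi-labelled libraries. The other 7 overlapped between the labelled groups and were not called. Over all tested genes 28.9% were called, 13.0% higher and 15.9% lower, so 1 call among 8 genes was below the share in the genome at large. With edgeR 0 of the 8 genes were called lower, 0 had a lower level at an unadjusted p under 0.05, and DESeq2 called 0 lower, against 16.0% of all tested genes. Non-overlapping groups were seen for 1 of the 8 genes, against 46.7% of all tested genes. The median log2 fold change of the 8 was -0.53, beside -0.12 for all tested genes, and 6 of the 8 values were negative.

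**Figure D1:**
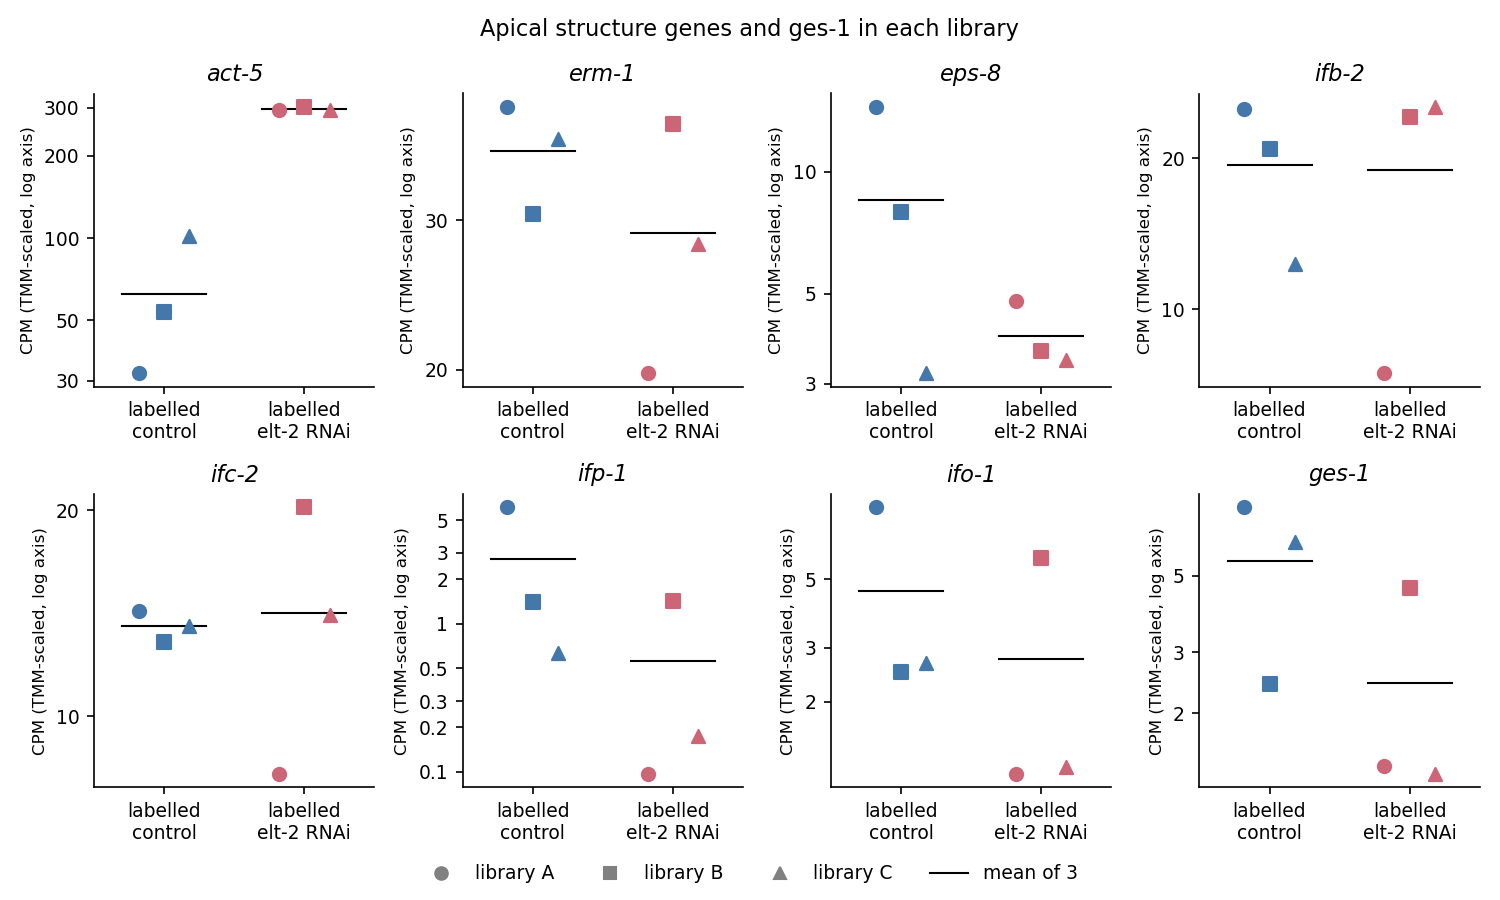
Level of each gene in each library, in TMM-scaled CPM on a log axis, with a panel for each gene, circles, squares and triangles for libraries A, B and C, and a line at the mean of the 3 libraries. In act-5 the RNAi-labelled libraries (293.7 to 302.5 CPM) lie above the labelled controls (31.9 to 101.7 CPM); in the other 7 panels the groups overlap.

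act-5 (T25C8.2; chromosome III, 13604412 to 13606066, minus strand, WBcel235) encodes a 375-residue actin found almost only in the microvilli of the intestine and of the excretory canal. It had 1825, 1677 and 2396 counts in the labelled controls, and 6074, 5784 and 5059 in the RNAi-labelled libraries. TMM scaling turned these into 31.9, 53.5 and 101.7 CPM against 294.1, 302.5 and 293.7 CPM. With TMM the labelled controls spread over 3.18-fold from lowest to highest, whereas the RNAi-labelled libraries lay within 1.03-fold of each other. That contrast in spread depended on scaling. With library size alone the levels were 110, 72.9 and 99.1 CPM in the labelled controls and 205, 192 and 144 CPM in the RNAi-labelled libraries. The TMM-scaled means were 62.4 ± 35.7 CPM and 296.8 ± 4.99 CPM (SD, n = 3), a 4.76-fold higher level in the RNAi-labelled libraries. The log2 fold change was 2.25 (SE 0.54, edgeR adjusted p = 0.0354), rank 813 among the 11474 tested genes from the highest value down. A two-sided exact permutation test returned p = 0.1, the smallest value that 3 libraries against 3 allow, and 22.5% of all tested genes had elt-2 RNAi above control with no overlap.

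The size of the act-5 difference depended on scaling, but its direction did not. With library size alone the log2 fold change was 0.94 (edgeR adjusted p = 0.104), so the call was lost, although the median of all tested genes also moved, to -1.76, and act-5 stood 2.70 above that median where it had stood 2.37 above the median with TMM. The call was also lost when elt-2 RNAi B (log2 fold change 2.31, edgeR adjusted p = 0.102) or elt-2 RNAi C (2.31, edgeR adjusted p = 0.153) was left out and without both libraries of letter B (2.07, edgeR adjusted p = 0.151). Without control C, the highest control, the log2 fold change was 2.90 (edgeR adjusted p = 0.0192).

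The other actins offer a comparison inside each library that needs no scaling. act-1, act-2 and act-3 lie in a single cluster and act-4 apart from them, and they serve muscle and other tissues. All are near-identical copies in their coding sequence, so the split of reads among them is uncertain. act-5 took 11.2%, 8.88% and 15.4% of the counts of the 5 actin genes in the labelled controls, and 27.8%, 16.5% and 20.5% in the RNAi-labelled libraries. The lowest elt-2 RNAi library was above the highest control, the mean shares being 21.6 ± 5.73% and 11.8 ± 3.30% (SD, n = 3; exact two-sided permutation p = 0.1, the smallest possible). This ratio and those below were chosen after the values had been seen. With TMM scaling act-2 was also called, at 1.60 on the log2 scale (SE 0.61, edgeR adjusted p = 0.0998), whereas act-1 (1.33), act-3 (1.12) and act-4 (1.01) were not, at edgeR adjusted p of 0.129, 0.159 and 0.136. With library size alone act-1, act-3 and act-4 had negative values (-0.15, -0.25 and -0.42) and act-2 was at 0.26. Without control A, control C or any of the RNAi-labelled libraries act-2 was not called.

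**Figure D2:**
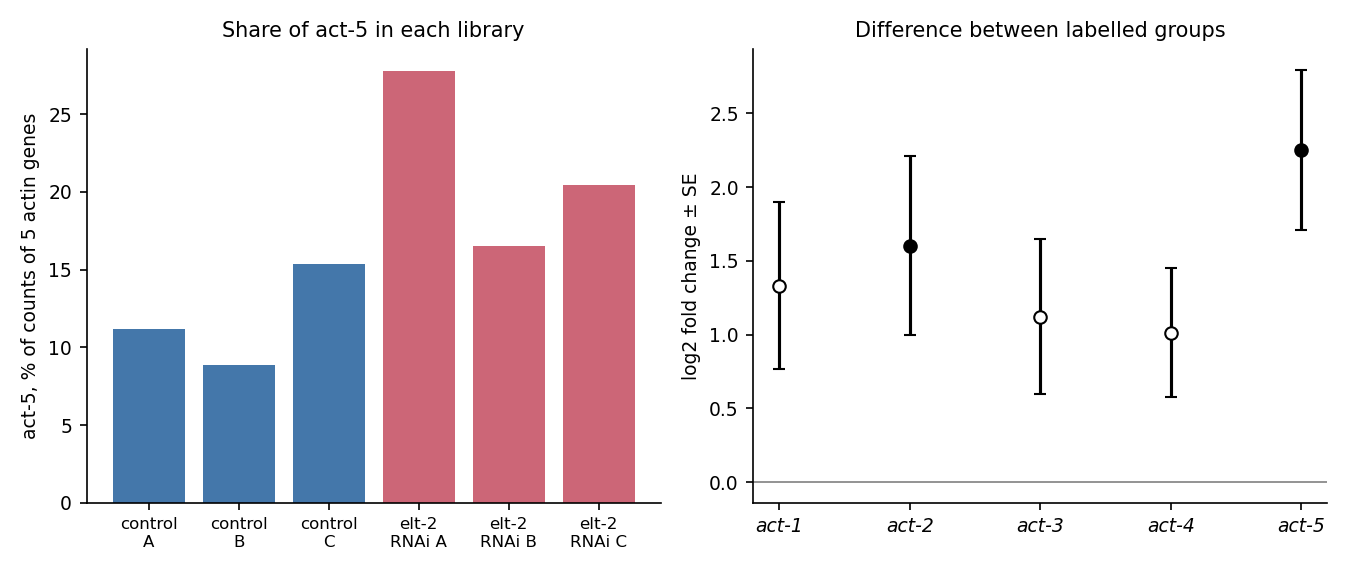
Left, bars give the percentage of the counts of act-1 to act-5 that fell on act-5 in each library (8.88% to 15.4% in the labelled controls, 16.5% to 27.8% in the RNAi-labelled libraries). Right, points give the log2 fold change of each actin gene with TMM scaling and bars 1 SE; filled points (act-2 and act-5) passed an adjusted p under 0.10.

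erm-1 (C01G8.5; chromosome I, 5284026 to 5291604, minus strand) encodes the ezrin, radixin and moesin family protein of the worm, which links actin to the apical membrane. It had 40.8, 30.5 and 37.3 CPM in the labelled controls and 19.8, 38.9 and 28.1 CPM in the RNAi-labelled libraries. elt-2 RNAi B stood among the controls, and the other RNAi-labelled libraries were below all of them. The means of 36.2 ± 5.23 and 28.9 ± 9.58 CPM (SD, n = 3) differed by less than the spread between libraries (log2 fold change -0.32, SE 0.39, edgeR adjusted p = 0.560). The neighbouring gene dnj-4 on the same strand lies 82 bp past the 3-prime end of erm-1, close enough for 3-prime reads to need care.

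eps-8 (Y57G11C.24; chromosome IV, 14879484 to 14900653, plus strand) encodes a protein that caps and bundles actin at the tips of microvilli. Its counts were 827, 249 and 75 in the labelled controls, and 99, 69 and 59 in the RNAi-labelled libraries. This gave 14.5, 7.95 and 3.18 CPM against 4.79, 3.61 and 3.42 CPM, so control A and B were high while control C was the lowest of all 6 libraries. The log2 fold change was -1.12 (SE 0.53, edgeR adjusted p = 0.166). Without control C it was called lower, at -1.40 (edgeR adjusted p = 0.0551), and without control A it was -0.58 (edgeR adjusted p = 0.431). The annotation holds 12 transcripts of eps-8 with 5 distinct 3-prime ends, and the table gave them as a single value.

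Of the 3 microvillar genes only act-5 was called, and its difference also stands in the ratios of the others to it. For each count of act-5 there were 1.28, 0.570 and 0.367 counts of erm-1 in the labelled controls, and 0.067, 0.129 and 0.096 in the RNAi-labelled libraries. The corresponding ratios of eps-8 to act-5 were 0.453, 0.148 and 0.031 in the controls and 0.016, 0.012 and 0.012 in the RNAi-labelled libraries. Neither ratio overlapped between the labelled groups (exact two-sided permutation p = 0.1 for each, n = 3, the smallest possible). Since act-5 is in both denominators and erm-1 and eps-8 were not called, these ratios add little to the act-5 difference, and they are not comparisons of the level of 1 gene with another.

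Of the filament genes, ifb-2 and ifc-2 had nearly equal means in the labelled groups. ifb-2 (F10C1.7; chromosome II, 5750188 to 5754140, plus strand) encodes a filament protein of the endotube that is a partner for other intestinal chains. It had 25.1, 20.9 and 12.3 CPM in the labelled controls and 7.46, 24.2 and 25.3 CPM in the RNAi-labelled libraries. elt-2 RNAi A was the lowest library and elt-2 RNAi C the highest (log2 fold change -0.03, SE 0.52, edgeR adjusted p = 0.965). ifc-2 (M6.1; chromosome X, 642156 to 654904, minus strand), another chain of the endotube, had 14.3, 12.8 and 13.5 CPM in the controls, within 1.11-fold of each other. The RNAi-labelled libraries were on both sides of them, at 8.23, 20.2 and 14.0 CPM (log2 fold change 0.06, SE 0.40, edgeR adjusted p = 0.913). With library size alone the sign of ifc-2 was turned and it was called lower, at -1.65 (edgeR adjusted p = 0.0740), near the median of all genes under that scaling. ifc-2 has 7 annotated transcripts with 4 distinct 3-prime ends, again given as a single value.

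ifp-1 and ifo-1 were high in control A and low in elt-2 RNAi A and C. ifp-1 (C43C3.1; chromosome X, 9675873 to 9680169, minus strand) encodes a further intestinal filament chain. Its counts were few: 348, 44 and 15 in the labelled controls, and 2, 27 and 3 in the RNAi-labelled libraries. The levels were 6.09, 1.40 and 0.637 CPM against 0.0968, 1.41 and 0.174 CPM, so that B was the highest RNAi-labelled library and equalled control B. The value of -2.28 on the log2 scale (SE 1.11, edgeR adjusted p = 0.171) was the most negative of the 8 genes, and it was not called. Control A decided much of it, the value being -0.92 without that library (edgeR adjusted p = 0.606). Without elt-2 RNAi B it was -4.20 and called (edgeR adjusted p = 0.0964).

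ifo-1 (F42C5.10; chromosome IV, 7320734 to 7326663, minus strand) encodes a 1292-residue organizer that keeps the filaments at the apical membrane. It had 8.60, 2.49 and 2.67 CPM in the labelled controls and 1.16, 5.86 and 1.22 CPM in the RNAi-labelled libraries. The groups overlapped through elt-2 RNAi B, which was above control B and C (log2 fold change -0.75, SE 0.76, edgeR adjusted p = 0.488). Without control A nothing of the difference remained, at 0.00 (edgeR adjusted p = 0.998).

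ges-1 (R12A1.4; chromosome V, 1427653 to 1432137, minus strand) encodes the gut-specific carboxylesterase, an enzyme of the intestinal cells and not a part of the brush border. Its counts were 451, 76 and 148 in the labelled controls, and 29, 88 and 23 in the RNAi-labelled libraries. Control A and C were the highest libraries, elt-2 RNAi A and C the lowest, and between them elt-2 RNAi B was above control B. The means were 5.53 ± 2.81 CPM and 2.45 ± 1.87 CPM (SD, n = 3; exact two-sided permutation p = 0.2). The difference was not called (log2 fold change -1.18, SE 0.63, edgeR adjusted p = 0.203). Between same-lettered libraries, which nothing marks as pairs, the log2 difference was -2.43 for A, 0.90 for B and -2.18 for C.

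That order recurred in other genes. ges-1, erm-1, ifo-1 and ifp-1 were lower in elt-2 RNAi than in control within letters A and C and higher within letter B, although for ifp-1 the difference within B was only 0.01. These were 4 of the 8 genes, whereas 1260 of the 11474 tested genes had the pattern. It was present in 6 of 10 other intestine genes (cpr-1, cpr-6, ftn-1, lys-1, mtl-2 and pho-1), in 4 of 8 apical transporters of the intestine and in 7 of 18 carboxylesterase relatives of ges-1, and also in 4 of 18 genes of membrane traffic, 1 of 5 of the excretory canal (vha-5) and 1 of 7 of the germ line (him-3). In the list of intestinal filaments 3 of 9 genes had it (ifd-1, ifo-1 and ifp-1). It was in 2 of 32 genes of the actin and microvillus list (erm-1 and pfn-1) and 1 of 14 of the polarity list (par-3). The pattern was in none of the 5 epidermal, 6 muscle, 4 pharyngeal, 6 neuronal or 7 sperm genes tested. For example, cpr-6, a gut cysteine protease gene, had 6507, 829 and 7829 counts in the labelled controls and 1014, 9575 and 704 in the RNAi-labelled libraries. The pattern depended on scaling: with library size alone it was present in ifo-1 alone of the 8 genes, against 6.57% of all tested genes. Under that scaling it was in 8 of the 10 other intestine genes, 4 of 8 apical transporters and 5 of 18 carboxylesterase relatives. It was also in the actin genes act-1, act-3 and act-4, the filament genes ifd-1 and ifb-1, and let-767 of membrane traffic. The remaining genes with it were 1 pharyngeal gene (myo-1) and 1 sperm gene (gsp-4). It was looked for after the values had been seen. The letters set libraries side by side here only as names, since nothing says that libraries of a letter belong together. The differences within a letter, and the counts of genes with the pattern, therefore rest on pairs that the sources do not give. Whether the B libraries carry the right labels was not tested, and the group means and the overlaps through B rest on those labels.

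**Figure D3:**
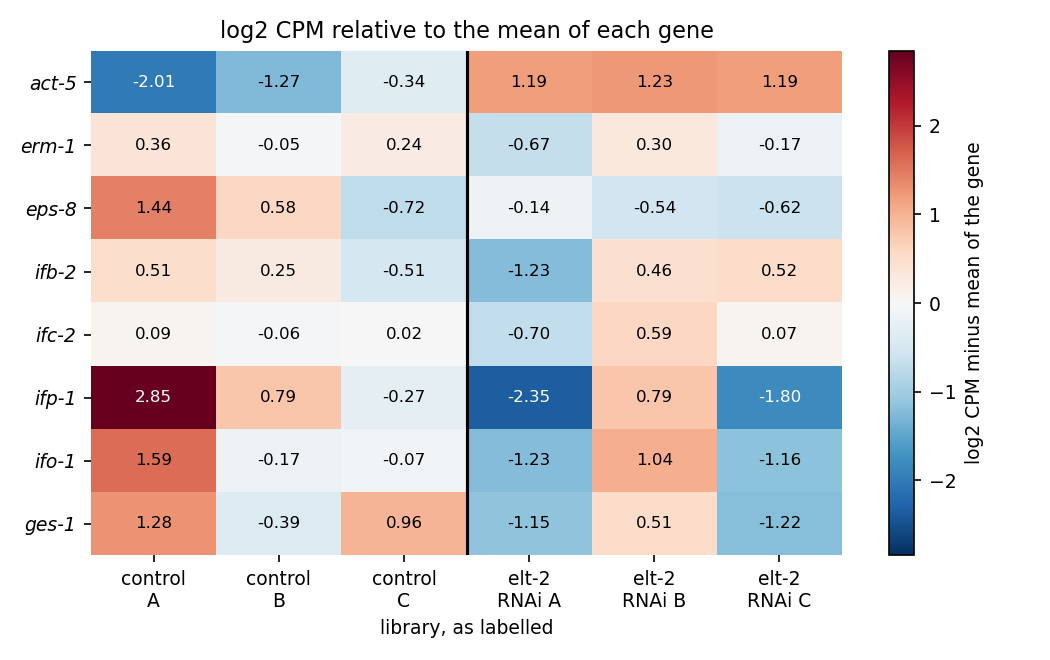
log2 CPM of each gene (rows) in each library (columns, as labelled) minus the mean of that gene over the 6 libraries, with red above and blue below the mean and the value printed in each cell. Control A is above the mean for all genes but act-5, elt-2 RNAi A is below it for all but act-5, and elt-2 RNAi B is above it for all but eps-8.

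Over the 8 genes the median of these deviations was 0.90, -0.06 and -0.17 in the labelled controls, and -0.92, 0.55 and -0.39 in the RNAi-labelled libraries. The corresponding medians of all tested genes stayed between -0.04 and 0.12. Control A and elt-2 RNAi B thus had the highest medians of these genes, and elt-2 RNAi A the lowest. Leaving out both B libraries moved ges-1, ifp-1 and ifo-1 past the threshold, at log2 fold changes of -2.44, -4.69 and -2.31 (edgeR adjusted p = 0.0629, 0.0838 and 0.0972). That made 3 of 8 called lower, against 8.36% of all genes tested without those libraries, while act-5 lost its call. These 3 genes had already been named for being higher in elt-2 RNAi within letter B and lower within A and C. More negative values without the B libraries follow from that pattern, so this count adds no separate support for it. Leaving out both A or both C libraries instead gave 0 of 8 called lower (edgeR). Without both A libraries ges-1 was at -0.60, ifp-1 at -0.42 and ifo-1, with its sign turned, at 0.40 (edgeR adjusted p = 0.605, 0.792 and 0.741).

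As a description over the 6 libraries, which share depth and scaling, the levels of ifp-1 and ifo-1 had a Pearson correlation of 0.94, ges-1 and erm-1 of 0.88, ges-1 and ifo-1 of 0.88, and ifb-2 and ifc-2 of 0.80. act-5 had negative values with each of the other 7, from -0.04 with ifc-2 to -0.82 with eps-8. Among 3526 other tested genes whose mean reached 10 CPM, those most like ges-1 were famh-136 (0.997), dlc-1 (0.990) and Y111B2A.2 (0.981). Those most like act-5 were rme-2, the yolk receptor gene of oocytes (0.997), H06I04.3 (0.996) and map-2 (0.995). For ifo-1 the list was led by pod-2, the acetyl-CoA carboxylase gene (0.984), for ifp-1 by C53B7.3 (0.992), for erm-1 by sec-61.G of the protein translocation channel (0.997), for eps-8 by mdt-19 (0.987), for ifb-2 by srdh-1 (0.976) and for ifc-2 by ddx-17 (0.982). With 6 libraries and so many genes searched, high values are easily reached.

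Scaling shifted all 8 genes together. With library size alone 7 of the 8 were called lower and act-5 was not called, but 52.3% of all tested genes were called lower there and 3.84% higher. When each library's most abundant 3% of genes were left out of its size, ges-1 (-1.72), eps-8 (-1.71) and ifp-1 (-2.86) were called lower (edgeR adjusted p = 0.0850, 0.0552 and 0.0873) and act-5 (1.75) higher (edgeR adjusted p = 0.0332), beside 32.7% of all tested genes called lower and 9.45% higher. Relative to the median of all tested genes the values changed less. ges-1 stood at -1.06 relative to that median with TMM and at -1.24 with library size alone, and ifb-2 and ifc-2 stayed between -0.18 and 0.19.

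**Figure D4:**
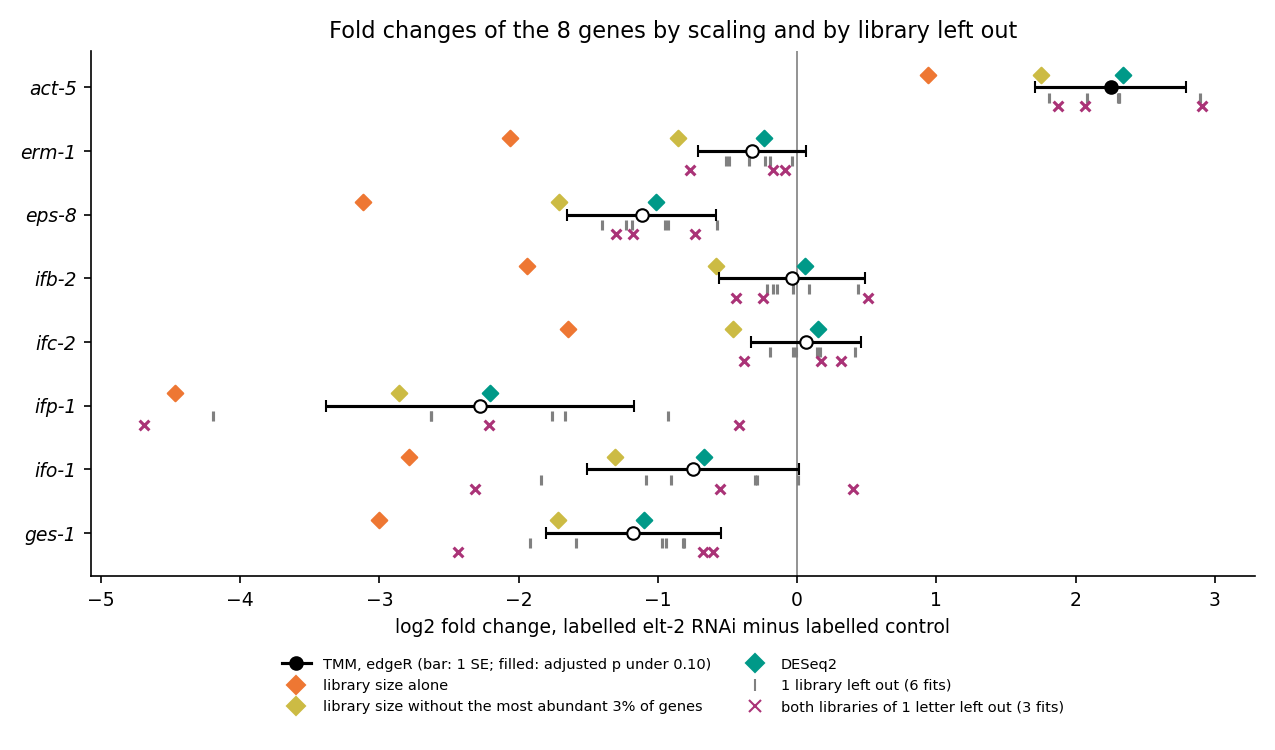
log2 fold change of the 8 genes (labelled elt-2 RNAi minus labelled control) with TMM scaling (circles, bars 1 SE, filled where the adjusted p was under 0.10), with 3 other scalings (diamonds), with 1 library left out (ticks) and with both libraries of a letter left out (crosses). act-5 is right of 0 throughout (0.94 to 2.91), ges-1 left of it throughout (at most -0.60), and library size alone lies left of every other scaling.

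The wider filament system showed no common direction. Of 9 genes of intestinal filaments, the 4 above included, 1 was called lower and 1 higher, beside 15.9% and 13.0% of all tested genes. The called genes were sma-5, a kinase gene needed for a smooth filament sheath, at -1.83 (SE 0.62, edgeR adjusted p = 0.0784), and ifd-2, another intestinal chain, at 2.07 (SE 0.71, edgeR adjusted p = 0.0801). ifd-2 had 396, 234 and 24 counts in the labelled controls and 476, 228 and 520 in the RNAi-labelled libraries, so control C stood apart by its low value. ifd-2 was called in 1 and sma-5 in 2 of the 6 leave-one-out fits, which each dropped a library, and ifd-2 fell to 0.14 with library size alone. ifc-1 (1.76), bbln-1 (0.79) and ifd-1 (-1.32) were not called (edgeR adjusted p = 0.159, 0.301 and 0.310).

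Among 4 tested intermediate filament genes outside that intestinal list, 1 was called higher, beside 13.0% of all tested genes. It was ifa-1 (2.74, SE 0.55, edgeR adjusted p = 0.0212). With edgeR 0 were called lower (0 at an unadjusted p under 0.05, 0 by DESeq2). ifa-1 had 6.25, 15.3 and 16.3 CPM in the labelled controls and 48.0, 96.6 and 108.1 CPM in the RNAi-labelled libraries, every RNAi-labelled library being above every control. It was called in 5 of the 6 leave-one-out fits, the exception being the one without elt-2 RNAi C (edgeR adjusted p = 0.105).

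Of 32 genes of the actin and microvillus cytoskeleton, 6 were called lower and 3 higher, beside 15.9% and 13.0% of all tested genes. The median log2 fold change of the list was -0.16, beside -0.12 for all tested genes. The lower genes included arx-2 (-1.36, edgeR adjusted p = 0.0440) and arx-6 (-1.08, edgeR adjusted p = 0.0592) of the Arp2/3 complex, which nucleates branched actin. The other 5 arx genes were not called and lay between -0.81 (arx-4) and 0.77 (arx-5). The lower genes also included the capping protein gene cap-1 (-1.27, edgeR adjusted p = 0.0561) and nfm-1, the merlin relative of erm-1 (-2.07, edgeR adjusted p = 0.0622). The higher genes were act-5, act-2 and the profilin gene pfn-3, which had 75, 50 and 197 counts in the labelled controls and 1598, 1148 and 1795 in the RNAi-labelled libraries (4.43, SE 0.82, edgeR adjusted p = 0.0167). pfn-3 was called in all 6 leave-one-out fits, and it overlaps lim-6 in the annotation. Each of the named lower genes lost its call in at least 3 of the 6 leave-one-out fits.

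Genes of polarity and apical junctions were lower as far as they were called: 4 of 14, with a median of -0.85, beside 15.9% of all tested genes called lower and their median of -0.12. The called genes were crb-1, a Crumbs gene (-2.24, edgeR adjusted p = 0.0547), eat-20, its relative (-1.99, edgeR adjusted p = 0.0609), the cadherin gene hmr-1 (-1.10, edgeR adjusted p = 0.0870) and the atypical protein kinase C gene pkc-3 (-0.92, edgeR adjusted p = 0.0993). crb-1 was low throughout, with 132, 44 and 12 counts in the labelled controls and 7, 5 and 5 in the RNAi-labelled libraries. With edgeR 0 of the 14 were called higher (0 at an unadjusted p under 0.05, 0 by DESeq2), and none of these 4 calls held in more than 2 of the 6 leave-one-out fits. Of these 4 genes, crb-1, hmr-1 and pkc-3 overlap another annotated gene.

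Of 8 apical transporter genes only pept-1, the peptide uptake carrier of the brush border, was called, beside 28.9% of all tested genes. pept-1 had 6.11, 7.56 and 7.77 CPM in the labelled controls and 16.8, 44.5 and 27.2 CPM in the RNAi-labelled libraries, without overlap (log2 fold change 2.05, SE 0.44, edgeR adjusted p = 0.0263). Leaving out elt-2 RNAi C ended the call (edgeR adjusted p = 0.106), and with library size alone the value was 0.46 (edgeR adjusted p = 0.594). nhx-2, the sodium-proton exchanger gene, was at -1.01 (edgeR adjusted p = 0.164) and vha-6, the apical proton pump gene, at 0.69 (edgeR adjusted p = 0.455).

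Among 18 genes of apical sorting and membrane traffic, 2 were called lower and 1 higher, beside 15.9% and 13.0% of all tested genes. aps-1, a clathrin adaptor gene, was at -1.41 (edgeR adjusted p = 0.0570) and rab-5, of early endosomes, at -1.17 (edgeR adjusted p = 0.0581), each called in 2 of the 6 leave-one-out fits. exoc-8 of the exocyst, which tethers vesicles at the membrane, had 5.76, 4.79 and 5.56 CPM in the labelled controls and 25.2, 18.8 and 26.2 CPM in the RNAi-labelled libraries. It was called in all 6 leave-one-out fits (log2 fold change 2.12, SE 0.34, edgeR adjusted p = 0.0100), although with library size alone the value was 0.42 (edgeR adjusted p = 0.641).

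Of 32 carboxylesterase genes related to ges-1, 18 had enough counts to be tested. Among those 18, 4 were called lower, beside 15.9% of all tested genes, and the median was -0.68, beside -0.12. The called genes were cest-8 (-2.31, edgeR adjusted p = 0.0462), cest-17 (-2.58, edgeR adjusted p = 0.0618), cest-35.1 (-2.73, edgeR adjusted p = 0.0671) and cest-5.2 (-1.81, edgeR adjusted p = 0.0938). Of these, cest-17 had the most reads, 445, 103 and 26 counts in the labelled controls and 5, 19 and 14 in the RNAi-labelled libraries, and the other 3 had no more than 55 counts in any library. With edgeR 0 were called higher (0 at an unadjusted p under 0.05, 0 by DESeq2). None of the 4 calls held in more than 2 of the 6 leave-one-out fits. Related esterases can share reads, and cest-8 overlaps cest-9.2 in the annotation.

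Markers of tissues also moved between the libraries. The counts of called markers here and below stand beside 15.9% of all tested genes called lower and 13.0% called higher (edgeR). Of 10 intestine genes outside the 8, 1 was called lower (the GATA factor gene elt-7, -1.44, edgeR adjusted p = 0.0566) and 2 higher (the lysozyme gene lys-8, 1.39, edgeR adjusted p = 0.0488, and the aspartyl protease gene asp-1, 2.45, edgeR adjusted p = 0.0508). Their summed level was 601 to 2644 CPM in the labelled controls and 1786 to 5571 CPM in the RNAi-labelled libraries. asp-1 alone had 226, 365 and 669 CPM in the controls and 1298, 3279 and 2315 CPM in the RNAi-labelled libraries. It thus made up most of the sum in each RNAi-labelled library. Intestinal RNA was present throughout, with ftn-1 at 0 counts in 3 libraries. The excretory canal, where act-5 and erm-1 are also active, had summed marker levels of 21.7 to 33.7 and 14.3 to 24.3 CPM, with 1 of 5 tested genes called lower (exc-5) and exc-4, exc-7 and sulp-4 at 0 in at least 1 library.

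The marker levels that follow are TMM-scaled sums over each list. The TMM factor was 3.45, 1.36 and 0.975 in the labelled controls and 0.698, 0.636 and 0.492 in the RNAi-labelled libraries. Separation of the groups in these sums can therefore come from scaling, and the sums were not tested with library size alone. Among all tested genes 46.7% had groups that did not overlap. Germ line markers were at 170 to 510 CPM in the labelled controls and at 773 to 1040 CPM in the RNAi-labelled libraries, without overlap. Of these, 1 of 7 was called higher (glh-1) and 1 lower (glp-1). Sperm markers were at 129 to 831 and 1106 to 1507 CPM, also without overlap, with 1 of 7 called higher (gsp-3, 4.31, edgeR adjusted p = 0.00477) and 4 of 7 by DESeq2. Muscle markers ran from 319 to 2448 CPM in the controls and from 2091 to 2910 CPM in the RNAi-labelled libraries. Neuronal markers went the other way, from 33.3 to 49.9 and from 25.3 to 29.1 CPM, with 2 of 6 called lower (unc-119 and snb-1). Epidermal markers were at 65.6 and 67.5 CPM in control A and B and at 12.8 to 17.1 CPM in the other 4 libraries. Of the 5 tested epidermal genes, 2 were called lower (dpy-10 and nhr-23). Only these 2 had negative log2 fold changes, and the median of the 5 was 0.45. Pharyngeal markers were at 40.5 to 60.2 and 48.6 to 84.2 CPM, with 1 of 4 called higher (myo-2) and 1 lower (pha-4). With edgeR 0 of 6 muscle genes were called (1 at an unadjusted p under 0.05, 2 by DESeq2). Of the marker calls given here, only gsp-3 held in all 6 leave-one-out fits. The part of these marker differences in the act-5 difference was not tested.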

How the data were processed

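Poly-A RNA of whole L4 worms was sequenced from the 3-prime ends of transcripts (3SEQ), in 6 barcoded libraries. Libraries were pooled for sequencing, but which ones shared a pool is not given in the sources used here, so a pool for each group cannot be told apart from the labels. Raw counts of reads for each gene are what the authors deposited, and the methods describe reads as uniquely mapped. The submitters' processing notes name Bowtie 0.12.7. The genome build, annotation, counting program and use of strand are not given in the sources used here, so reads of overlapping or near-identical genes may be lost or split.

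The 19512 genes were paired by sequence name with WBcel235 (Ensembl release 115), which gave symbols and coordinates, for 19081 of them. Low counts were filtered with filterByExpr, and counts were scaled by TMM and tested with edgeR 4.0.16 (R 4.3.3), two-sided, group as the only term, with Benjamini-Hochberg adjustment over 11474 genes, after a test on simulated data. Standard errors are the log2 fold change divided by the root of F. CPM is per 1000000 TMM-scaled counts. Exact permutation tests used log2 CPM, or the log2 of a ratio. The study's own test, a rank product, was not used here.

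Alternatives changed the scaling (plain library size, or library size after removal of each library's most abundant 3% of genes), the tool (DESeq2 1.42.0), the filter (none, or a minimum of 10 counts throughout), the model (letter as a replicate block), the libraries (each library, or each letter, left out) and the threshold (0.05). Named genes were the 8 genes, elt-2, up to 4 called genes of each list and direction by adjusted p, and the 3 genes most like each of the 8 with a mean of at least 10 CPM (only the first is printed for most). cpr-6, the uncalled relatives and transporters given with values, and the genes sharing the letter pattern were named after their values were seen. The 8 genes and all lists were chosen by name with earlier results of these data known. p-values set the difference between the labelled groups against the spread between these libraries only.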

Additional observations from a re-analysis of the deposited data

How the results depend on the processing

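The alternatives gave 127 log2 fold changes of the 8 genes, counting those at the 0.05 threshold, which repeat the reported values and cannot turn a sign. The sign was turned in 15 of them, namely 8 of ifc-2 (-1.65 to -0.01), 5 of ifb-2 (0.01 to 0.51) and 2 of ifo-1 (0.00 and 0.40, without control A and without both A libraries). Of these only ifc-2 with library size alone (-1.65) was called. In 14 others a gene gained a call, and in 4, all of act-5, the call was lost. The number of the 8 genes called, 1 with TMM, was 7 with library size alone, 4 without the most abundant 3% of genes, 3 without both B libraries (all lower, where leaving out both A or both C libraries left act-5 alone called), and 0 to 2 with 1 library left out (0 without elt-2 RNAi C, 2 without control C). Over all tested genes, 3312 were called with TMM, 6441 with library size alone, 1919, 1863 and 1845 without both libraries of letter A, B and C, 1587 at an adjusted p under 0.05, and between 465 and 4290 with 1 library left out (elt-2 RNAi C and control C in turn). Deviations of same-lettered libraries from their group means had correlations of -0.21, -0.57 and -0.10 for A, B and C. With 3 libraries in each group, these values cannot settle whether the letters mark pairs. With a replicate block 1219 genes were called, and 1 of the 8, act-5 at 2.41 (edgeR adjusted p = 0.0856). With at least 10 counts in every library ifp-1 was not tested. The cause of these shifts was not tested. Low counts limit ifp-1 most, with 2 and 3 counts in elt-2 RNAi A and C, although these libraries were deeper than each labelled control.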
